A study of Mus musculus with 2 samples.

Results

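Cajal-Retzius cells are the reelin-secreting neurons of the marginal zone, and in the adult mouse hippocampus some of them persist along the hippocampal fissure and the outer molecular layer. In 2 single-nucleus RNA sequencing (snRNA-seq) libraries of mouse hippocampus, 77 of 20594 nuclei met a rule for them: 39 of 10466 in the PS19 library, or 0.373% (95% exact Clopper-Pearson interval 0.265 to 0.509), and 38 of 10128 in the PZKO library, or 0.375% (0.266 to 0.515). The intervals cover counting error only. Nuclei first had to hold 600 or more UMIs (unique molecular identifiers, each marking 1 captured RNA molecule) from 300 or more genes, with a mitochondrial share of no more than 5%. Of these the rule took nuclei with at least 2 UMIs of Trp73, Lhx1 and Lhx5 summed and at least 3 of Reln. It left out nuclei that held, per 10000 UMIs, 3 or more of Gad1 and Gad2 (GABA synthesis), 5 or more of Dnah12 and Ccdc180 (ciliated cells), or 10 or more of St18 and Prr5l (oligodendrocytes).

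The study asked how the loss of Zbp1, a sensor of Z-form DNA and RNA, alters tauopathy. The PS19 library came from PS19+/- Zbp1+/+ males and the PZKO library from PS19+/- Zbp1-/- males, all 9 months old. Both genotypes carry the PS19 transgene, human tau with the P301S mutation driven by the mouse prion protein (Prnp) promoter, so no group here is free of it. Each library is labelled as pooled hippocampi, while the protocol in the labels speaks of animals processed separately. With 1 library per genotype and no map from nuclei to animals, there is no replicate check, and nothing below is tested between genotypes. Every interval measures counting error only, of 1 library or, for ratios of PZKO over PS19, of both.

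Cajal-Retzius cells are glutamatergic neurons that arise at the edges of the developing cortex, mainly from the cortical hem. Reelin, the large extracellular protein they release, binds the receptors Vldlr and Lrp8 (ApoER2) on migrating neurons, and the adaptor Dab1 carries the signal inward, which sets the position of neurons in cortical layers. Trp73, a p53-family transcription factor, marks the cells from the hem, and the LIM-homeobox factors Lhx1 and Lhx5 are part of their identity. Most Cajal-Retzius cells die after birth, and in the adult hippocampus reelin is also made by GABAergic interneurons.

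The start regions of Reln and Trp73, the genes with which the rule begins, are shown because their base composition differs between genes and between start sites of 1 gene. The sequences are the 250 bases before each annotated start from RefSeq (GRCm38.p6), read 5′ to 3′ on the gene's own strand, with the letters CG (a C followed by a G) in capitals.
Reln, minus strand, chr5:22344706-22344955: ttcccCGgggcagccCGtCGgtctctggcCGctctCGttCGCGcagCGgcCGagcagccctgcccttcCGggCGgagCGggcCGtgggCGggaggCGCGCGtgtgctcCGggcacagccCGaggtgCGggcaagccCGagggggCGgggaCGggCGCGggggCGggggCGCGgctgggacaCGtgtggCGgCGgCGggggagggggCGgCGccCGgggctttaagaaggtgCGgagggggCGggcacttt
Trp73 upstream start, minus strand, chr4:154139876-154140125: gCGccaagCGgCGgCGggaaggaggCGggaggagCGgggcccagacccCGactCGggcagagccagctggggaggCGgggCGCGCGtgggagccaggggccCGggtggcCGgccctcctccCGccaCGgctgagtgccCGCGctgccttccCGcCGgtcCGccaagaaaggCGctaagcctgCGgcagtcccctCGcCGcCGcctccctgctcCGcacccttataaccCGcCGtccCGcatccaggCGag
Trp73 internal start, minus strand, chr4:154097174-154097423: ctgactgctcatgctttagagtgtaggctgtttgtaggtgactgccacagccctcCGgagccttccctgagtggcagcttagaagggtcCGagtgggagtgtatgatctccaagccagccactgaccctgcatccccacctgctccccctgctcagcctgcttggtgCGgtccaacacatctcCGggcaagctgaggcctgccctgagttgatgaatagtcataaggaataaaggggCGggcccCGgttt
The Reln window holds 37 CG pairs and is 80% G or C, and 2.2% of 32851 such windows of 27025 genes hold as many CG pairs. The upstream Trp73 window holds 31 pairs, a number reached by 5.19% of windows, and is 77.2% G or C. The internal Trp73 window lies downstream of the first start, holds 6 pairs, which is the median of all windows, and is 58.4% G or C against a median of 52.4%. UMIs of a 3′ kit do not tell which start a transcript came from, so the counts below are of the whole gene.

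The PZKO library was deeper. Nuclei that passed the filter held 113139743 UMIs in PS19 and 169430489 in PZKO, with medians of 6208 and 9634 per nucleus. Nuclei that met the rule held 560670 and 453861 UMIs in all, with medians of 6277 (range 1852 to 81472) and 7790.5 (3466 to 46260). Levels are given as CPM, the UMIs of a gene summed over a group of nuclei and scaled to 1000000 UMIs of that group, and ratios are log2 ratios of CPM. The libraries shared 47 barcodes among all nuclei and none among the 77, so no nucleus that met the rule was seen under the same barcode in both.

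The nuclei were chosen from measured values, and these are given as a description. The minimum on Trp73, Lhx1 and Lhx5 was met by 127 PS19 and 170 PZKO nuclei and that on Reln by 382 and 576, while 43 and 55 nuclei met both. The upper limits then removed 4 PS19 and 17 PZKO nuclei, 1 and 11 of them for Gad1 and Gad2. Just inside the minimum, 8 PS19 and 3 PZKO nuclei held exactly 2 UMIs of the 3 transcription factors, with a median of 21 Reln UMIs in PS19 and 30 in PZKO. Just outside, 11 PS19 and 5 PZKO nuclei held 1 such UMI with the Reln minimum and all limits met, and their median Reln count was 7 in PS19 and 10 in PZKO.

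The nuclei fell into 2 sets when placed by genes the rule does not read. Among the 20 nearest neighbours of each nucleus in 30 principal components of 2000 variable genes, rule genes left out, 53 nuclei (25 PS19 and 28 PZKO) had mostly other nuclei that met the rule, with medians of 18 and 19 of 20. These 53 all lay in 1 of 32 clusters, which held 95 nuclei in all. The other 24 nuclei (14 PS19 and 10 PZKO) had between 0 and 5 such neighbours and lay scattered. Depth differed between the sets: the 53 that lie together had medians of 5393 UMIs in PS19 and 7337 in PZKO, the 24 that lie apart 16232.5 and 24910.5, and nuclei classed as glutamatergic by their markers 21665.5 and 30169. The 24 held 74.9% of all PS19 UMIs of the 77 nuclei and 50.9% of those of PZKO, so a sum over all 77 is mainly a sum over the 24 in PS19 and about evenly divided in PZKO. The 4 largest nuclei of PS19, all among the 24, held 282280 UMIs or 50.3% of those of its 39 nuclei, and the 4 largest of PZKO held 33.2%. Doublets (droplets that hold more than 1 nucleus) were scored with Scrublet. The 8.37% of PS19 nuclei and 8.11% of PZKO nuclei with the highest scores included 10 and 5 of the 24, among them the 4 largest nuclei of PS19 and 2 of the 4 largest of PZKO, and 0 of the 53.

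**Figure D1:**
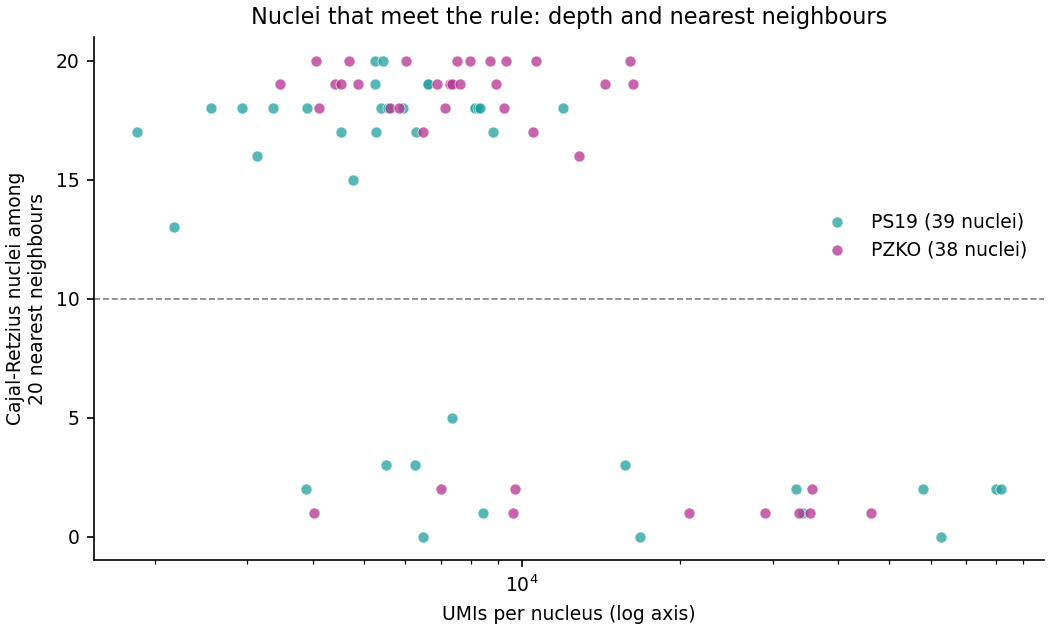
Each point is 1 of the 77 nuclei that met the rule. The horizontal axis is its UMI count (log axis), the vertical axis how many of its 20 nearest neighbours also met the rule, and the dashed line marks 10. The 53 nuclei above the line sit between 13 and 20, and the 24 below it between 0 and 5 and reach the highest depths.

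The label could be checked only on Ndnf, a secreted neurotrophic factor and the 1 defining marker that the rule does not read. Over all 77 nuclei Ndnf had at least 1 UMI in 38 of 39 in PS19 and 38 of 38 in PZKO, at 828 and 1575 CPM. It was not left out of the genes that placed the nuclei, so its higher level in the 53 than in the 24 may be partly built into that split and is a description. In the 53, each of which held at least 1 UMI, its level was 2882 CPM in PS19 and 2742 CPM in PZKO, against 13.4 and 10.6 CPM in all other nuclei, 147 and 86.5 CPM in GABAergic nuclei with Reln, and 140 and 450 CPM in the 24 that lie apart. Per 10000 UMIs of a nucleus, Ndnf in the 53 had a lowest value of 2.21, a median of 24.7 and a highest value of 66.3 in PS19, and 5.44, 26.4 and 57.6 in PZKO. The 2 libraries overlap over nearly their whole range. In the 24, markers of forebrain glutamatergic neurons summed to 1481 and 1558 CPM, above the 1320.5 and 1379 CPM of all other nuclei, whereas in the 53 they summed to 157 and 215 CPM. The 24 were mixed: 2 of 14 in PS19 and 4 of 10 in PZKO held fewer than 5 UMIs of these markers per 10000, and single nuclei held up to 30.9 and 38.6 per 10000 of microglia markers and up to 27.7 and 26 of endothelial and mural markers. They are called below only nuclei that met the rule.

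Reln and the transcription factors are what the rule selected, and their levels are given without a test. Reln (chr5:21884454-22344702, minus strand, mm10) reached 12330 CPM in the 53 nuclei of PS19 and 12369 CPM in those of PZKO, against 56.7 and 85.6 CPM in all other nuclei and 1075 and 1189 CPM in GABAergic nuclei with Reln. Per 10000 UMIs its lowest, median and highest values were 39.6, 113 and 239 in PS19 and 49.8, 118 and 205 in PZKO and the libraries overlap over most of their range. In the 24 that lie apart the level was 1412 and 2670 CPM. Although they are few, the 77 nuclei held 26.7% (95% exact interval 25.8 to 27.6) of the Reln UMIs of PS19 nuclei that passed the filter. In PZKO the share was 18.9% (18.3 to 19.5).

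Trp73 (chr4:154056253-154140208, minus strand) was at 889 CPM in the 53 nuclei of PS19 and 1014 CPM in those of PZKO, against 3.81 and 2.28 CPM in all other nuclei. Its lowest, median and highest values per 10000 UMIs were 2.27, 7.80 and 26.9 in PS19 and 0, 7.74 and 17.5 in PZKO, so at least 1 PZKO nucleus met the rule through Lhx1 or Lhx5. Lhx1 (chr11:84518284-84525535, minus strand) stood at 213 and 188 CPM and was seen in 15 of 25 and 17 of 28 nuclei. Lhx5 (chr5:120431699-120441223, plus strand) stood at 64.0 and 62.8 CPM and was seen in 7 and 11 nuclei. At these depths a nucleus without an Lhx5 UMI cannot be told from a nucleus without the transcript. Ndnf lies at chr6:65671590-65712326 on the plus strand.

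**Figure D2:**
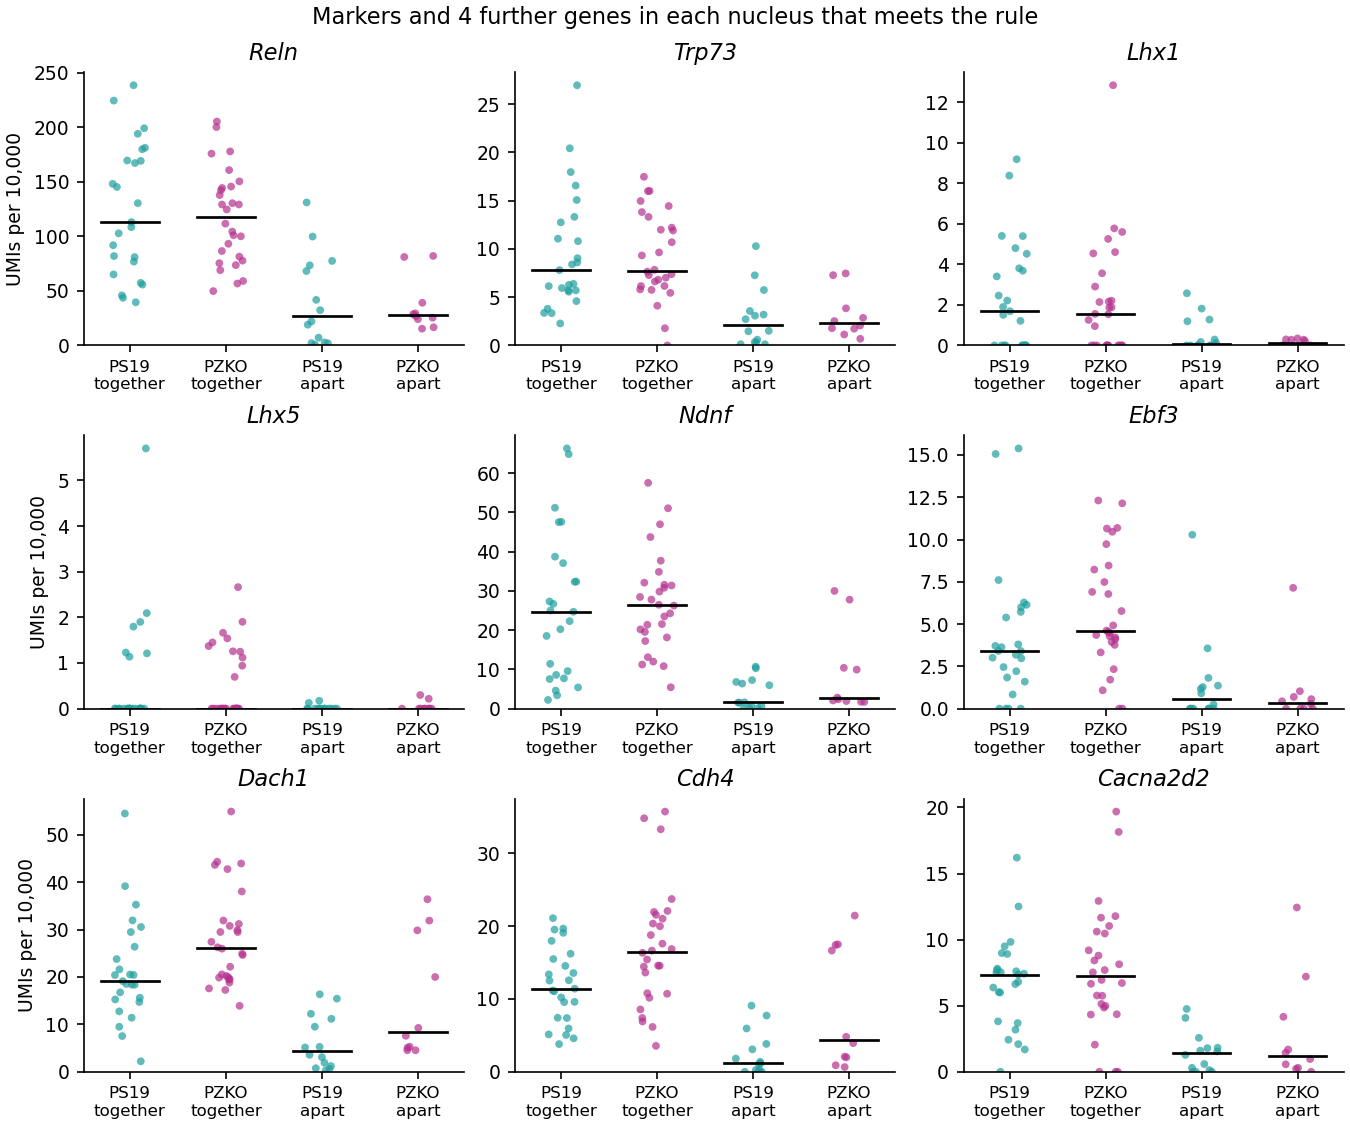
Each panel shows 1 of the 5 markers or of 4 further genes (Ebf3, Dach1, Cdh4 and Cacna2d2, chosen after their values were seen) in UMIs per 10000 UMIs of a nucleus, with a point per nucleus for the 53 nuclei that lie together and the 24 that lie apart in each library and a black line at each median. The medians of Reln in the nuclei that lie together are 113 in PS19 and 118 in PZKO, against 27.2 and 27.7 in those that lie apart.

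Other genes differed from the rest of the nuclei as well. Over all 77 nuclei, 531 of 20533 genes with enough UMIs (2.59%) were at least 2-fold above all other nuclei in both libraries and 371 (1.81%) at least 2-fold below. In the 53 nuclei that lie together, among 3508 genes with at least 10 UMIs observed or expected in each library, 343 (9.78%) were at least 2-fold above and 557 (15.9%) at least 2-fold below. These are counts past a fold, not tests, and the 53 were set apart by genes among those counted. A gene that is rare in other nuclei enters the second count only if it is high in the 53, so the upward share is partly fixed by the minimum on UMIs. The same limit holds for the upward counts of the lists below.

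The genes with the highest ratios include transcription factors, adhesion molecules and several long noncoding RNAs. Ebf3, a COE-family transcription factor, stood at 427 CPM in the 53 nuclei of PS19 and 624 CPM in those of PZKO, against 4.92 and 7.48 CPM in all other nuclei. It was not particular to the 53, since 38 nuclei of the same cluster that did not meet the rule and had fewer than 10 neighbours that did held it at 636 and 771 CPM. Dach1, a transcriptional regulator, stood at 2319 and 2989 CPM against 49.6 and 47.6 CPM and was seen in each of the 53. Eya2, a transcriptional coactivator of the eyes-absent family, stood at 192 and 197 CPM against 5.44 and 9.02 CPM. Each of the 3 was above the other nuclei by a log2 ratio of more than 4 in both libraries.

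Among enzymes and membrane proteins, Pik3c2g, a class II phosphoinositide 3-kinase, had the highest ratio among genes outside the rule with at least 30 UMIs in the 77 nuclei of each library, at 420 and 696 CPM against 1.71 and 1.73 CPM, although it was seen in only 14 of 25 and 20 of 28 nuclei. Cdh4 (R-cadherin), a calcium-dependent adhesion molecule, stood at 1224 and 1845 CPM against 32.0 and 42.9 CPM and was seen in every one of the 53. Tmem163, a zinc-binding vesicle membrane protein, stood at 1195 and 1333 CPM against 34.1 and 46.4 CPM. Eln (elastin) stood at 270 and 386 CPM, Lrig3 at 299 and 274 CPM and Vmn2r1, annotated as a vomeronasal receptor, at 221 and 202 CPM, each against no more than 11.6 CPM in other nuclei.

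The annotation around some of the highest genes bears on how they are read. Gm10475 (270 and 184 CPM against 1.14 and 1.25) lies on the plus strand at chr5:21910931-21954014, inside Reln, which is on the minus strand. Gm49027 (221 and 162 CPM against 1.43 and 2.18) overlaps Diablo on the same strand, so reads of the 2 genes may be shared and the level of each is uncertain. B130024G19Rik (733 and 498 CPM against 17.3 and 24.3) overlaps the start of Nr2f2 on the opposite strand. B230323A14Rik (285 and 458 CPM against 5.17 and 5.82) overlaps Foxb1 on the opposite strand and was seen in only 6 and 15 nuclei. Gm29683 stood at 569 and 592 CPM against 15.2 and 14.1, and E330013P04Rik at 221 and 126 CPM against 7.35 and 5.02.

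A list of 25 further genes linked with Cajal-Retzius cells summed to 2512 CPM in the 53 nuclei of PS19 and 2554 CPM in those of PZKO, against 242 and 249 CPM in all other nuclei. The sum was 3760 and 2999 CPM in the 38 cluster neighbours named with Ebf3, which held almost no Reln, so it is not particular to the 53. Of the 25 genes, 16 had too few UMIs for a ratio and 9 were measured. Among these 9, 8 were at least 2-fold higher and 0 lower, against 9.78% and 15.9% of all genes. Each of the 8 passed the minimum through the 53 nuclei themselves, so this count is no support. Nhlh2, a bHLH factor of young neurons, had 92.5 and 153 CPM against 0.453 and 0.45 CPM. Lhx1os, which starts 125 bases from Lhx1, had 135 and 175 CPM against 0.329 and 0.479 CPM. Nxph4, a neurexophilin that binds neurexins, had 11 UMIs in each library, or 78.3 and 49.4 CPM, against 0.346 and 0.414 CPM. Nr2f2 (COUP-TFII) stood at 228 and 148 CPM against 19.3 and 15.4 CPM, and Cnr1, the cannabinoid receptor, was the 1 of the 9 that stayed within the fold. Calb2 (calretinin) had 3 UMIs in PS19 and 1 in PZKO and Ebf2 had 1 and 2, too few at this depth to set either above or below other nuclei in both libraries.

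Of 24 transcription factors of other forebrain neurons, 16 were under the minimum on UMIs for a ratio in the 53 nuclei, and 7 of the other 8 were at least 2-fold below other nuclei in both libraries, where 15.9% of all genes were. The exception was Zbtb20, a zinc finger repressor of hippocampal pyramidal neurons, at 2106 and 1988 CPM against 1815 and 1430 CPM in all other nuclei. A gene with 0 UMIs enters these ratios at 3 UMIs per library. Zfpm2 had 2 and 8 UMIs (14.2 and 35.9 CPM against 457 and 457). Prox1, a factor of dentate granule cells, had 0 UMIs in both libraries. In the p53 family and apoptosis list 5 of 19 genes could be measured, 1 was higher and 0 lower, against 9.78% and 15.9% of all genes. The 1 was Diablo, a mitochondrial protein that binds inhibitors of apoptosis, at 349 and 377 CPM against 13.7 and 13.9 CPM. Diablo passed the minimum only through its UMIs in the 53, so this upward count is no support. Trp63 had 0 UMIs and Trp53 6 and 3 in these nuclei.

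Of the vesicular glutamate transporters, Slc17a6 was high and Slc17a7 low. Slc17a6 (VGLUT2) stood at 171 CPM in PS19 and 206 CPM in PZKO, against 14.1 and 20 CPM in all other nuclei, and was seen in 12 of 25 and 20 of 28 nuclei. Slc17a7 (VGLUT1), the main transporter of forebrain pyramidal neurons, stood at 28.5 and 26.9 CPM against 170 and 156 CPM. Slc32a1, the vesicular GABA transporter, had 1 and 2 UMIs. In the list of 8 genes 6 could be measured, 1 was higher and 4 lower, against 9.78% and 15.9% of all genes.

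Subunits of glutamate receptors differed from each other. Gria1, Gria2 and Gria4, which code for AMPA receptor subunits, stood at 1459 and 1791, 1081 and 1068, and 1231 and 1288 CPM, with log2 ratios over all other nuclei between −0.41 and 1.08. Gria3 had 2 and 5 UMIs, with log2 ratios of −5.35 and −4.91, and Grik2, a kainate receptor subunit, 11 and 17 UMIs, with −3.80 and −3.88. Of 10 AMPA and kainate genes measured, 0 were at least 2-fold higher and 4 lower (9.78% and 15.9% of all genes), with medians of −0.52 and −0.58.

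Of 7 NMDA receptor genes 3 could be measured, and 2 of them, Grin2a and Grin2b, were at least 2-fold lower, against 15.9% of all genes. Grin2a had 6 UMIs in each library, or 42.7 and 26.9 CPM against 1257 and 1348, with log2 ratios of −4.88 (95% counting interval −6.33 to −3.76) and −5.65 (−7.09 to −4.52). Grin2b had 15 and 20 UMIs, with ratios of −3.83 (−4.67 to −3.11) and −4.10 (−4.81 to −3.47). The obligatory subunit Grin1 was closer to other nuclei, at 235 and 162 CPM against 286 and 299. In the metabotropic list all 5 genes, of 7, that could be measured, Grm3, Grm5, Grm7 and Grm8 among them, were at least 2-fold lower (15.9% of all genes), with medians of −4.54 and −3.90. Grm5 had 8 and 7 UMIs, with ratios of −4.98 (−6.19 to −4.00) and −5.85 (−7.17 to −4.81).

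Receptors for GABA were lower in part. Of 10 GABA-A and glycine receptor genes, 0 were higher and 5 lower, against 9.78% and 15.9% of all genes, with medians of −1.21 and −1.25. Gabrb1 stood at 49.8 and 85.3 CPM against 1080 and 1100, and Gabra2 at 114 and 71.8 CPM against 339 and 326. Gabrg3 stood at 733 and 700 CPM against 469 and 580. Of the chloride carriers that set the direction of the GABA response, Slc12a5 (KCC2), which exports chloride, had 3 and 4 UMIs and Slc12a2 (NKCC1), which imports it, had 6 and 10. Of the 4 genes of the chloride list that could be measured, 2 were lower and 0 higher, against 15.9% and 9.78% of all genes.

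Voltage-gated channels split both ways, with 7 of 29 at least 2-fold higher and 8 lower, against 9.78% and 15.9% of all genes, and medians of −0.14 and −0.19. The 7 were Kcnb2, Kcnh7, Kcnc2, Kcnq5 and Kcnip1, which code for potassium channel subunits or a channel-interacting protein, and the calcium channel subunits Cacna2d1 and Cacna2d2. Kcnh7 stood at 6403 and 6858 CPM against 818 and 1032 CPM in all other nuclei. Kcnb2 stood at 4255 and 5022 CPM against 476 and 633 CPM, with lowest, median and highest values per 10000 UMIs of 13.3, 39.2 and 85.8 in PS19 and 12, 47.6 and 114 in PZKO. Kcnd2, a subunit of transient A-type potassium channels, went the other way, with 7 and 8 UMIs and log2 ratios of −5.24 (−6.55 to −4.20) and −5.81 (−7.02 to −4.83). The sodium channel gene Scn1a had ratios of −2.35 and −2.37, whereas Scn2a stood at −0.14 and −0.48.

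**Figure D3:**
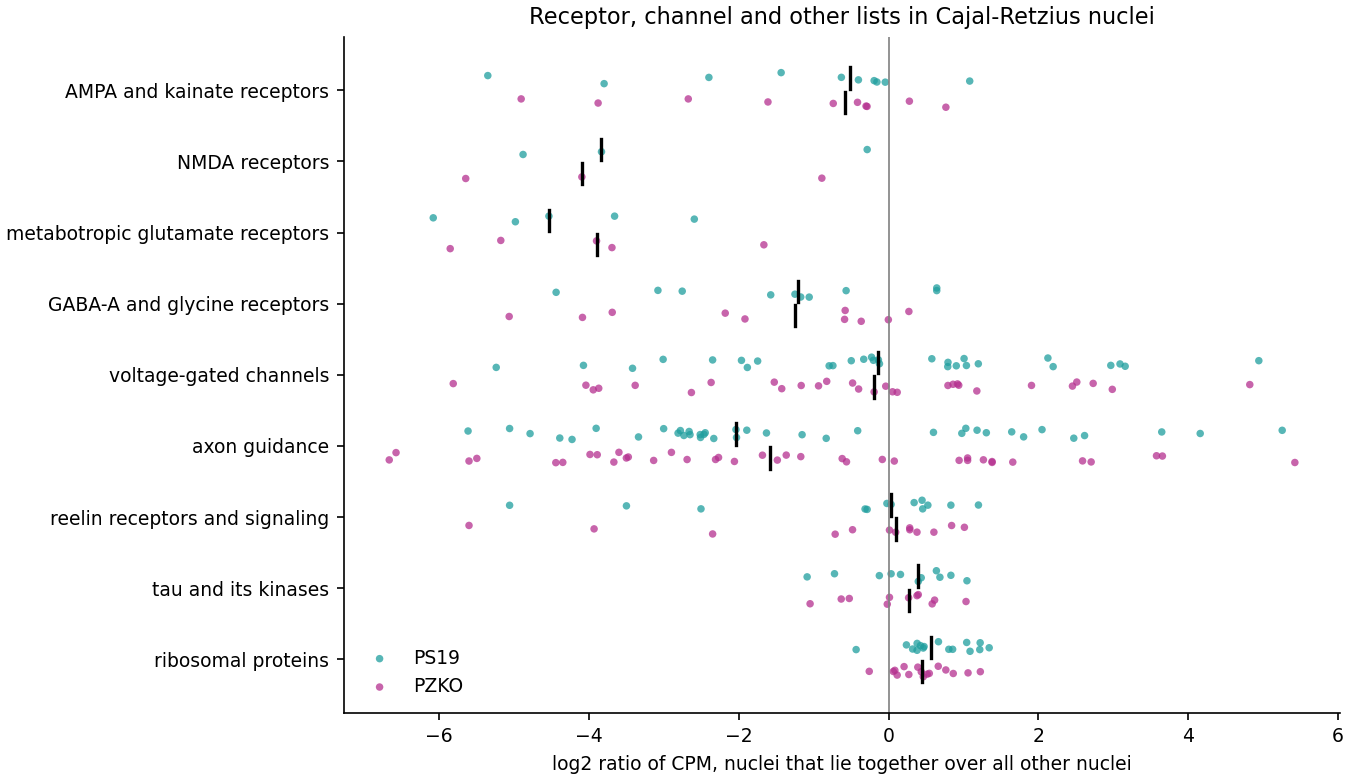
Each point is a gene of a list with at least 10 UMIs observed or expected in each library. The horizontal axis is the log2 ratio of its CPM in the 53 nuclei that lie together over all other nuclei, and black ticks are list medians. NMDA receptor genes have medians of −3.83 and −4.10 and metabotropic glutamate receptor genes −4.54 and −3.90, while voltage-gated channels spread over both sides of 0.

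Reln stood high in these nuclei and Dab1, its adaptor in receiving cells, stood low. Dab1 stood at 128 and 108 CPM against 1449 and 1644 CPM in all other nuclei, with log2 ratios of −3.50 (−4.25 to −2.84) and −3.93 (−4.57 to −3.36). In the 24 nuclei that lie apart it stood at 1935 and 1389 CPM. The receptor Lrp8 stood at 71.1 and 108 CPM against 51.9 and 60.1 CPM, and the receptor Vldlr had 2 and 3 UMIs, with intervals of the log2 ratio from −4.70 to 0.20 and −3.88 to −0.05. Of 13 genes of the list that could be measured, 1 (Pik3ca, a kinase subunit) was higher and 3 (Dab1, Pik3r1 and Nrp1) lower, near the 9.78% and 15.9% of all genes, with medians of 0.03 and 0.10.

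Guidance and adhesion genes split into a high and a low group. Of 38 measured, 10 were at least 2-fold higher and 21 lower, against 9.78% and 15.9% of all genes, with medians of −2.03 and −1.58. Robo2, a Slit receptor, stood at 5543 and 6108 CPM against 442 and 484 CPM, while Robo1 stood at 790 and 718 CPM against 521 and 681 CPM. Dcc, a netrin receptor, stood at 2277 and 2091 CPM against 728 and 802 CPM, and Ntng2, a membrane-bound netrin relative, at 199 and 238 CPM against 32.4 and 39.5 CPM. Unc5c and Unc5d, further netrin receptors, had 4 and 17 and 0 and 1 UMIs. Epha6 stood at 28.5 and 89.8 CPM against 1395 and 1330 CPM, and Epha3, a receptor of the same ephrin-A class, at 711 and 1602 CPM against 128 and 134 CPM.

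Signals and their receptors gave 3 higher and 7 lower of 14 genes, against 9.78% and 15.9% of all genes. Vegfa stood at 114 and 126 CPM against 36.1 and 31.2 CPM. Nrxn3, a presynaptic adhesion molecule, stood at 448 and 278 CPM against 3675 and 4347 CPM. Ntrk2, the BDNF receptor, stood at 1117 and 1185 CPM against 489 and 611 CPM, and Ntrk3, the NT-3 receptor, at 157 and 89.8 CPM against 487 and 541 CPM. None of the 30 neuropeptide and peptide receptor genes and none of the 12 immediate early genes reached the 10 UMIs observed or expected that a ratio needed in both libraries. Summed over their lists, immediate early genes stood at 49.8 and 49.4 CPM against 157 and 196 CPM in all other nuclei, and the neuropeptide list at 171 and 98.7 CPM against 248 and 232 CPM.

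The genes with the lowest ratios include postsynaptic scaffold and signaling proteins (Dlgap1, Dlgap2, Kalrn and Frmpd4). The 10 lowest in the 53 nuclei, a choice made after their values were seen, were Csmd1, Dlgap1, Dlgap2, Kalrn, Kcnd2, Frmpd4, Sgcz, Tmeff2, Pde4b and Erbb4. Csmd1 had 1 UMI in PS19 and 5 in PZKO, or 7.11 and 22.4 CPM against 3428 and 4145 CPM, with log2 ratios of −8.91 (−14.22 to −6.43) and −7.53 (−9.15 to −6.31). Dlgap1, a scaffold protein that binds PSD-95, had 2 and 8 UMIs, with ratios of −7.34 (−10.39 to −5.49) and −6.04 (−7.25 to −5.06). Sgcz had 0 UMIs in both, which allows up to 3, against 1024 and 1486 CPM in all other nuclei. Erbb4, the neuregulin receptor of GABAergic neurons, had 2 and 1 UMIs, with intervals from −9.02 to −4.12 and −13.12 to −5.34. Over all 77 nuclei the 10 lowest were Erbb4, Sox2ot, Lhfpl3, Limch1, Nxph1, Grip1, Adarb2, Gpc5, Enpp2 and Grik1. The upper limits of the rule bear on this list: without them Lhfpl3 (0.34), Nxph1 (0.41), Grip1 (0.10), Adarb2 (0.49) and Grik1 (0.26) had log2 ratios above 0 in the library where the ratio was higher. In the whole cluster of 95 nuclei that ratio of Lhfpl3 was 2.38. Csmd1 was not among the 10, at 2724 and 2265 CPM, since the 24 nuclei that lie apart held it at 3632 and 4428 CPM.

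**Figure D4:**
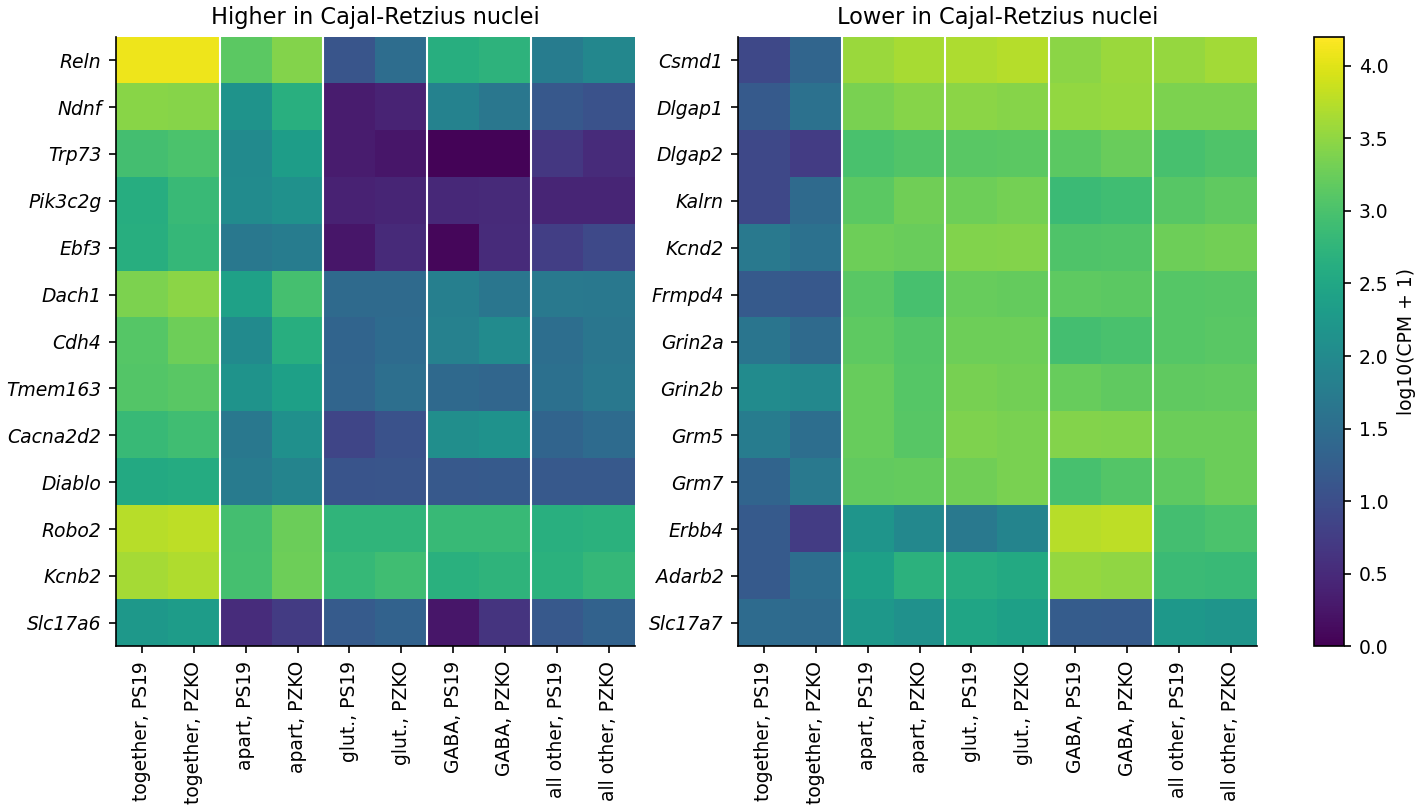
Rows are genes chosen after their values were seen, columns are groups of nuclei in each library (together and apart for the 2 sets that met the rule, glut. for glutamatergic, GABA for GABAergic), and color is log10(CPM + 1). The left panel is brightest in the nuclei that lie together and the right panel is darkest there, with Csmd1 at 7.11 and 22.4 CPM against 3428 and 4145 CPM in all other nuclei.

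List medians for tau, ribosomal protein and nuclear long noncoding RNA genes lay within 2-fold of other nuclei, while some single genes lay further away. Mapt, mouse tau, was at 285 and 323 CPM against 469 and 465 CPM. Prnp, whose promoter drives the tau transgene, was at 306 and 224 CPM against 232 and 170 CPM, and App at 790 and 862 CPM against 583 and 562 CPM. Among 11 tau and tau kinase genes 1 was higher (Cdk5r1, the p35 activator of Cdk5, with 10 and 13 UMIs) and 1 lower (Mark1), no more than the 9.78% and 15.9% of all genes, with medians of 0.40 and 0.27. Of 16 ribosomal protein genes 2 were higher (Rpl11 and Rps16) and 0 lower, against 9.78% and 15.9% of all genes, with medians of 0.57 and 0.45. Of 8 nuclear long noncoding RNAs, Neat1 and Miat were lower and 0 were higher (15.9% and 9.78% of all genes), Neat1 with 3 UMIs in each library.

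Summed over each list, markers of most other cell types stood lower in the 53 nuclei than in all other nuclei. In the 53 nuclei, 7 oligodendrocyte markers summed to 733 CPM in PS19 and 449 CPM in PZKO, against 1821 and 1283 CPM in all other nuclei, the most abundant in PZKO being Mbp at 188 CPM. The 8 astrocyte markers summed to 519 and 570 CPM against 1908 and 1806 CPM, with Slc1a2 the most abundant at 256 and 332 CPM, and the 7 microglia markers to 135 and 108 CPM against 343 and 226 CPM, with 2 genes at 0. The 10 GABAergic markers summed to 85.4 and 85.3 CPM against 1763 and 1842 CPM, with 4 at 0, and the limits of the rule on Gad1 and Gad2, and likewise on ciliated and oligodendrocyte genes, bear on these low sums. The 6 choroid plexus markers summed to 541 and 40.4 CPM, of which Ttr made 541 and 35.9 CPM while 5 and 4 of the 6 were at 0, against 491 and 91.3 CPM in all other nuclei. Of the 6 leptomeningeal fibroblast markers 5 and 4 were at 0 and the sum of 192 and 202 CPM was nearly all Eya2. Most genes of the matrix were at 0 in the 53 nuclei, 20733 of them in PS19 and 19940 in PZKO. The numbers of markers at 0 are therefore a description and do not show that a cell type is absent. Ependymal markers summed to 28.5 and 8.98 CPM, endothelial and mural markers to 49.8 and 31.4 CPM, oligodendrocyte precursor markers to 56.9 and 49.4 CPM and T cell markers to 14.2 and 0 CPM, each below all other nuclei. In the 24 that lie apart, GABAergic markers summed to 419 and 593 CPM, microglia markers to 505 and 307 CPM and astrocyte markers to 1328 and 1606 CPM. Their part in the levels of the 24 was not tested.

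Between genotypes, the share of nuclei that met the rule was 0.373% in PS19 and 0.375% in PZKO, with intervals that overlap almost wholly. For the 53 alone the shares were 0.239% and 0.276%. Without the upper limits of the rule they were 0.411% and 0.543%. Taken as the whole cluster that held the 53, they were 0.392% and 0.533%. Fewer nuclei of a type and less RNA in each cannot be told apart in sums over a library, and a threshold on raw UMIs favors the deeper PZKO library: thinned to the depth of PS19, PZKO held 32 nuclei that met the rule, or 0.322%. Zbp1 itself had 1 UMI in the 39 PS19 nuclei and 0 in the 38 PZKO nuclei that met the rule. In all other nuclei it had 108 and 50 UMIs, or 0.959 and 0.296 CPM. The labels do not give the deleted part, and a 3′ tag outside it would remain, so these counts check the genotype only in part.

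The ratio of the defining markers differed between all 77 nuclei and the 53. The rule read Reln and Trp73, with raw minimums that favor the deeper PZKO library, so their ratios are a description. Over all 77 nuclei the log2 ratio of PZKO over PS19 was 0.84 for Reln, 0.93 for Ndnf and 1.03 for Trp73. In the 53 that lie together it was 0.00 for Reln, −0.07 (−0.26 to 0.11) for Ndnf and 0.19 for Trp73. In all other nuclei the ratios were 0.59, −0.34 and −0.74. That group mixes cell types, and 21.9% of nuclei that passed the filter were classed as glutamatergic in PS19 and 27.5% in PZKO. Ratios in all other nuclei, here and below, therefore do not separate level from make-up.

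Over all 77 nuclei, 122 of 3849 genes with at least 50 UMIs (3.17%) were at least 2-fold higher in PZKO and 174 (4.52%) at least 2-fold lower. That balance turned with the scaling. With edgeR TMM factors 153 were higher and 141 lower, and with DESeq2 size factors 155 and 141. In the 53, 36 of 1252 genes (2.88%) were at least 2-fold higher and 20 (1.6%) lower. The 8 highest over all 77 were Tmem132d, Sdk1, Kcnh1, Tenm3, Epb41l4a, Epha3, Cntn5 and Cdh4, with log2 ratios from 1.55 to 2.05, and the 8 lowest were Hs3st4, Gpc6, Tox, Ctnna3, Chrm3, Ttr, Cpne4 and Tafa1, with −4.71 to −2.49. Of these 16, 8 had fewer than 10 UMIs over both libraries in the 53. Hs3st4, a heparan sulfate sulfotransferase, had 323 UMIs in PS19 and 10 in PZKO over the 77 but 0 and 2 in the 53. Gpc6, a glypican, had 121 and 6 UMIs but 0 and 2 in the 53, and Chrm3, a muscarinic receptor, 216 and 22 but 0 and 8. Tafa1 turned from −2.49 to 1.92 (0.38 to 3.91), with 4 and 24 UMIs in the 53. Kcnh1 turned from 1.97 to −1.99 (−5.38 to 0.62), with 5 and 2 UMIs in the 53, and was at −2.95 in the whole cluster of 95 nuclei, where Cdh4 was at −0.40 and Cntn5 at −0.029. Of the 8 lowest, Chrm3 (2.44), Gpc6 (0.92), Tox (0.86), Hs3st4 (0.61) and Cpne4 (0.12) also had ratios above 0 in that cluster. Tmem132d had 36 and 121 UMIs over the 77 and 0 and 2 in the 53.

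In the 53, Epha3 was past the 2-fold limit as well, while Epb41l4a lay just under it. Epha3 had 100 UMIs in PS19 and 357 in PZKO, or 711 and 1602 CPM, with a log2 ratio of 1.17 (0.85 to 1.51) against 0.07 in all other nuclei. It was seen in 23 of 25 and 26 of 28 nuclei, 1 nucleus held 24.4% of the PZKO UMIs, and without the largest nucleus of each library the ratio was 1.02. In the 38 cluster neighbours named with Ebf3, Epha3 was above the 53 in both libraries and slightly lower in PZKO than in PS19. The ratio therefore depends on which nuclei of the cluster are counted. Epb41l4a, a membrane-cytoskeleton linker, had 18 and 57 UMIs, with a ratio just under 1 (0.21 to 1.85) against −0.06 in all other nuclei. Cdh4 stood at 0.59 (0.33 to 0.86) against 0.42 and Cntn5, a contactin, at 0.58 (0.34 to 0.82) against 0.34, so each was close to its ratio in the rest of the library. Ttr, the choroid plexus transthyretin gene, had 76 and 8 UMIs and a ratio of −3.91 (−5.18 to −2.86), and it was lower in all other nuclei too, at −2.80.

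**Figure D5:**
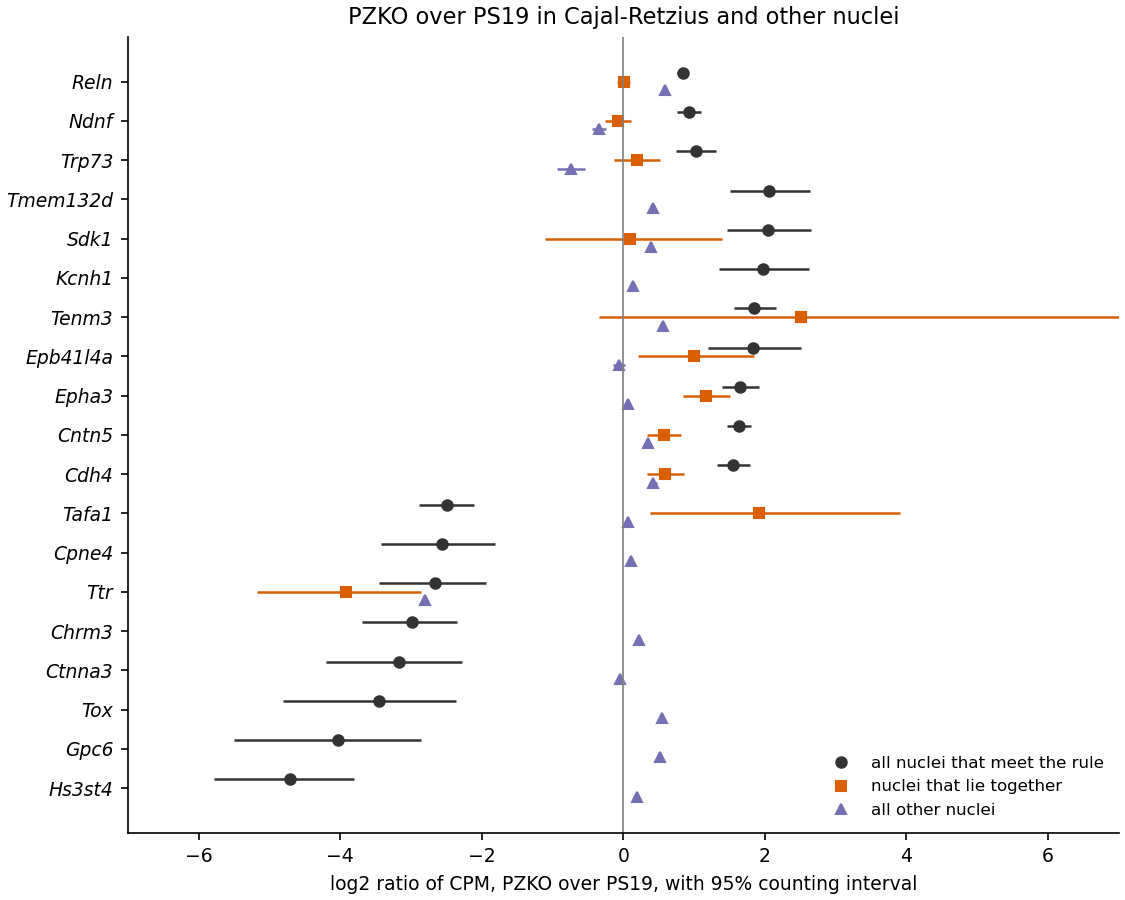
The horizontal axis is the log2 ratio of CPM, PZKO over PS19, with 95% counting intervals, for the 3 markers Reln, Ndnf and Trp73 and for the 8 highest and 8 lowest genes over all 77 nuclei. Symbols mark all 77 nuclei, the 53 that lie together and all other nuclei, a group with fewer than 10 UMIs over both libraries is left out, and the axis ends at 7 on either side. Epha3 lies at 1.65 over all 77 nuclei and 1.17 in the 53, and Reln moves from 0.84 to 0.00.

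Genes within the 53 were picked by the end of their counting interval nearest to 0, a choice made after values were seen. They are not given in that order. The intervals cover counting error only, so the choice is a description and no test between genotypes. Clstn2 stayed within 2-fold. Cnksr2, a postsynaptic scaffold of Ras signaling, had 24 and 122 UMIs in 15 of 25 and 23 of 28 nuclei, with a log2 ratio of 1.68 (1.04 to 2.38) against 0.07 in all other nuclei. Wwox, an oxidoreductase, had 44 and 175 UMIs, with 1.33 (0.84 to 1.84) against 0.13. Clstn2 (calsyntenin-2), a synaptic adhesion molecule, had 481 and 1229 UMIs, or 3422 and 5516 CPM, with 0.69 (0.54 to 0.84) against 0.02. Tafa2 and Shisa6, an AMPA receptor auxiliary gene, had 1.79 (1.10 to 2.56) and 1.84 (1.07 to 2.71). Galntl6 had the highest value, 2.25, but 91.3% of its PZKO UMIs were in 1 nucleus, and without the largest nuclei its ratio was −0.25.

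Several RNAs low in the 53 nuclei of PZKO had ratios below 0 in all other nuclei too, and only mt-Co3 and Ttr among those named here lay past −1 in the 53. In the 53 nuclei mt-Co3, a mitochondrial cytochrome oxidase gene, had a log2 ratio of −1.08 (−1.42 to −0.74) against −0.76 in all other nuclei, mt-Co2 −0.89 against −0.70 and mt-Nd4 −0.84 against −0.91. Cst3 (cystatin C) had −0.98 against −1.17, Fth1 (ferritin heavy chain) −0.94 against −0.72, Apoe −0.94 against −1.10 and the small RNA gene Bc1 −0.80 against −1.05. Kcnip4, a potassium channel-interacting protein, had −0.71 against 0.23, but 41.4% of its PS19 UMIs were in 1 nucleus, and without the largest nuclei its ratio was −0.18.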

How the data were processed

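The authors isolated nuclei from hippocampi of 9-month-old males and sequenced 10x Genomics 3′ libraries, and deposited 1 matrix of counts (UMIs per gene and barcode) per genotype. The submitters' processing notes and the study's methods name Cell Ranger 7.0.1 and mm10, while the matrix header names 8.0.1. The labels give a target of 6000 nuclei per sample, against 11469 (PS19) and 10920 (PZKO) barcodes in the files. The ambient RNA correction, nucleus filter and doublet removal that the methods describe are not in the deposited counts, so free RNA and doublets remain in them. No column was left unmapped. Results on a few genes are not reported here.

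The filter and membership rule were applied to the counts, and UMIs were summed per library and group of nuclei. The cells, gene lists and the split into 53 and 24 nuclei were chosen with earlier results of these data known. Glutamatergic and GABAergic nuclei were classed by markers. A gene counted as higher or lower when its log2 ratio of CPM over all other nuclei was at least 1, or at most −1, in both libraries, with at least 20 UMIs per library (PZKO over PS19: at least 50 UMIs over both). In the 53 nuclei, at least 10 UMIs observed or expected were also required, a limit added after the data were seen. Intervals are exact (95%, binomial or Poisson). Genes were named as markers, as members of lists, as the 15 highest, 10 lowest and 10 most abundant, and as the 8 highest and 8 lowest for PZKO over PS19. No edgeR or DESeq2 test was run, since each genotype is 1 library, and their scaling was an alternative. Scripts were checked on simulated data. Python 3.11.15, NumPy 2.4.6, pandas 2.3.3, SciPy 1.17.1, scanpy 1.11.5 (Scrublet, principal components, Leiden clusters at resolution 1), leidenalg 0.10.2, R 4.3.3, edgeR 4.0.16 and DESeq2 1.42.0 were used. Positions are from GENCODE M21 (GRCm38), which placed 594 of 594 named genes.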

Additional observations from a re-analysis of the deposited data

How the results depend on the processing

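No paired analysis was possible because each genotype is 1 library. The PS19 share of nuclei, 0.373%, was 0.239% for the 53 nuclei alone, and the PZKO share, 0.375%, was 0.543% without upper limits and 0.533% as the Leiden cluster. Genes higher than in other nuclei numbered 531 and became 963 without upper limits and 1031 in the 53 nuclei. They became 166 with at least 10 UMIs observed or expected and 1113 after the profile of all nuclei passing the filter was subtracted. Genes lower numbered 371 and became 559 with at least 3 UMIs of Trp73, Lhx1 and Lhx5, 753 without the highest Scrublet scores, 1298 as the Leiden cluster, 986 in the 53, 129 with at least 10 UMIs observed or expected, 1847 as means over nuclei and 959 after subtraction. Genes higher in PZKO numbered 122 and became 80 with at least 3 transcription factor UMIs, 221 without upper limits, 76 without the highest Scrublet scores, 36 in the 53, 60 with at least 100 UMIs, 1250 with no minimum and 523 after subtraction. Genes lower in PZKO numbered 174 and became 77, 322, 48, 20, 57, 2092 and 866 in the same order. The causes were not tested. The minimum on UMIs changes how many genes are counted, and for PZKO over PS19 so does the smaller set of nuclei. With TMM or DESeq2 scaling 153 or 155 genes were higher in PZKO and 141 or 141 lower. For the subtraction the profile was scaled to 62.4% of the UMIs in PS19 and 55.7% in PZKO. Each gene was cut at 0, so fewer UMIs than that were removed.

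Over other nuclei, without upper limits the log2 ratios turned to 0.34 for Lhfpl3, 0.41 for Nxph1, 0.10 for Grip1, 0.49 for Adarb2 and 0.26 for Grik1, and Lhfpl3 was at 2.38 in the Leiden cluster. For PZKO over PS19, the Leiden cluster gave −2.95 for Kcnh1, −0.40 for Cdh4, 0.86 for Tox, −0.64 for Trp73, 0.61 for Hs3st4, −0.029 for Cntn5, 0.12 for Cpne4, 2.44 for Chrm3 and 0.92 for Gpc6. The 53 nuclei gave −1.99 for Kcnh1 and 1.92 for Tafa1, and dropping the upper limits gave 0.34 for Cpne4 and 0.22 for Gpc6. Of 492 values of 41 named genes over other nuclei, 300 were classed as unmoved, and of 486 values of 36 genes between libraries, 296 were. This class was not tied to the counting error of each gene. Settings that change only the minimum on UMIs cannot move the ratio of a gene, and all their values are in the class. The tallies are therefore no measure of stability. The split into 53 and 24 nuclei, the 10 UMI minimum and leaving out the nucleus with most UMIs of a gene were chosen after seeing the data. Genes with few UMIs in the 53, whose libraries sum to 140549 and 222814 UMIs, cannot be placed on either side.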

Other observations

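The cluster that held the 53 nuclei held a further 38 nuclei, 13 in PS19 and 25 in PZKO, that did not meet the rule and had fewer than 10 neighbours that did. They are given no cell type here. Reln was at 0 CPM in PS19 and 2.98 CPM in PZKO and Trp73 at 0 in both. Ebf3 was at 636 and 771 CPM, Slc17a6 at 330 and 242 CPM and Lhx1 at 139 and 62.6 CPM, against 427 and 624, 171 and 206, and 213 and 188 CPM in the 53. Csmd1 was at 4199 and 4877 CPM, Grm8 at 2875 and 3517 CPM, Grm7 at 2238 and 2726 CPM, Ntng1 at 2337 and 2416 CPM and Nrp2 at 873 and 975 CPM, all of which were low in the 53. Epha3 was at 2186 CPM in PS19 and 2079 CPM in PZKO, against 711 and 1602 CPM in the 53, a contrast that was not tested. Their depth was higher, with medians of 13614 and 21261 UMIs per nucleus.

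Htr2c, a serotonin receptor gene, had 25 UMIs in the 53 nuclei of PS19 and 0 in those of PZKO, and 92% of the 25 were in 1 nucleus. Among 297 nuclei with at least 2 UMIs of Trp73, Lhx1 and Lhx5 before any limit, 140 within the limits had 0 Reln UMIs and 7 had 1 or 2, so few nuclei lay near the Reln minimum.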
